A study of Mus musculus with 6 samples.

Results

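The 37 mitochondrially encoded genes of the mouse were described in sorted kidney endothelial cells (ECs) with and without the Notch effector Rbpj. They are all rows of the deposited count table whose gene symbol begins with mt-, 37 of 55401 listed genes. The rule uses the symbol alone and no measured value, although the set was chosen for description with earlier results of these data known. The set holds 13 protein genes, 2 rRNA genes and 22 tRNA genes. All 37 lie on the mitochondrial genome, chrM of GRCm38, 28 of them on the plus strand of the annotation and 9 on the minus strand.

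The study asked what the loss of endothelial Notch signaling does to kidney ECs, and compared 3 CTRL with 3 RbpjΔEC libraries, each from 1 mouse. RbpjΔEC mice were Cre +/-; Rbpjf/f, with the tamoxifen-inducible Cre recombinase under the Cdh5 promoter, and CTRL mice were their Cre -/-; Rbpjf/f littermates. Mice of both groups carried the floxed Rbpj alleles, received 5 intraperitoneal injections of 1.5 mg tamoxifen at an age of 8 weeks, and were harvested 12 weeks after induction. The labels give an age of 21 weeks, which is 1 week more than these times add up to. Cdh5 is active in blood and lymphatic ECs, so that deletion was not restricted to the kidney or to 1 vessel type. Cells were taken as CD31+ CD45- by magnetic beads and sorting. The counts on Rbpj itself were 1127, 1408 and 1259 in CTRL and 1294, 1094 and 1187 in RbpjΔEC (log2 fold change -0.05). Here and in all that follows, values of a group stand in the order of its libraries 1 to 3. The counts cover the whole gene and not the floxed part alone, so they do not check the genotype, which is taken here from the labels.

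The mitochondrial genome is transcribed from both strands as long precursors, and most tRNAs sit between the other genes and are cut out of the precursor, which frees the rRNAs and mRNAs. The heavy-strand precursor gives both rRNAs and all mRNAs but 1, and the light-strand precursor gives mt-Nd6. The protein genes encode subunits of respiratory complexes I, III and IV and of the ATP synthase (complex V), and all other mitochondrial proteins are imported from nuclear genes. Because the genes of a strand share a precursor, the members are not independent measurements.

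Each library held between 39649171 and 47726850 counts on genes, which puts a floor of 3 counts at 0.0629 to 0.0757 CPM (counts scaled to the library's total on genes). Genes with any count numbered 33764 in CTRL 1 and 25629 to 26785 in the other libraries, and the cause was not tested. Pan-endothelial markers were present in all libraries, with a summed level of 26951 to 29433 CPM in CTRL and 25054 to 26010.4 CPM in RbpjΔEC. This sum was lower without overlap (exact permutation test, two-sided, p = 0.1), and of the 14 genes 10 had fitted values below 0, 5 of them with an unadjusted p below 0.05 against 1 higher, while edgeR called 0 and DESeq2 called 5 lower. At that unadjusted threshold 8.62% of all tested genes were lower and 8.88% higher. DESeq2 called 2.77% of all tested genes lower and 2.35% higher. Summed markers of proximal tubule cells, which are rich in mitochondria, were at 61.7, 107 and 182 CPM in CTRL 1 to 3, at 122 and 146 CPM in RbpjΔEC 1 and 2, and at 543 CPM in RbpjΔEC 3. All 12 of these markers passed the low-count filter, none was at 0 in all libraries, and all 12 fitted values were higher in RbpjΔEC, 1 at an unadjusted p under 0.05 and 0 called by edgeR (DESeq2 called 1). The distal tubule markers summed to 213 to 399 CPM in CTRL and 49.2 to 167 CPM in RbpjΔEC (7 of 8 tested, 0 called by edgeR, 5 lower at an unadjusted p under 0.05, 3 called by DESeq2), and the mural markers to 80.2 to 104 CPM against 33.2 to 54.5 CPM (8 of 9 tested, all 8 with fitted values below 0 and 7 with an unadjusted p below 0.05, of which edgeR called 3, Acta2, Myh11 and Rgs5, beside 0.559% of all tested genes, and DESeq2 called 7). Podocyte markers were at 181 to 199 and 181 to 221 CPM, macrophage markers at 14.1 to 15.3 and 24.3 to 28.3 CPM (Cd68 called higher, while the 4 tested genes had a median log2 fold change of -0.73), and erythroid markers at 6.43 to 6.67 and 0.917 to 5.60 CPM. B cell markers stayed under 1 CPM in every library and T cell markers under 0.15 CPM.

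The sequences printed here show where a mitochondrial gene and a nuclear copy of it could be told apart by a read, which bears on the row of the table to which a read was counted. Nuclear chromosomes carry old insertions of mitochondrial DNA. GENCODE M21 lists 7 unprocessed pseudogenes between chr1:24611535-24616197 (GRCm38, minus strand, a span of 4663 bases) that run alongside chrM:6381-11042. Of the 4149 bases compared, 7 differed. The copies of mt-Co2 (Gm28661, 681 bases), mt-Atp6 (Gm10925, 678), mt-Co3 (Gm28437, 783), mt-Nd4l (Gm10222, 294) and the first 876 bases of mt-Nd4 (Gm28439) had no difference at all. The copy of mt-Nd3, Gm28438, differed at a single base, T3C, counted from the first base of the gene with the mitochondrial base written first. The starts of both, chrM:9459-9533 on the plus strand and chr1:24613045-24613119 on the minus strand, are given 5′ to 3′ with that base in capitals.
mt-Nd3: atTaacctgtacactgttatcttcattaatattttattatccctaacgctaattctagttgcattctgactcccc
Gm28438: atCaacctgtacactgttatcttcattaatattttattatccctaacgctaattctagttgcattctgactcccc
Of the bases of mt-Co1 that Gm29216 covers, 6 differed (T1056A C1057T A1059G A1060G C1062A A1066T), all at the start of the annotated copy. The stretches are chrM:6381-6455 on the plus strand and chr1:24616123-24616197 on the minus strand, with the differing bases in capitals.
mt-Co1: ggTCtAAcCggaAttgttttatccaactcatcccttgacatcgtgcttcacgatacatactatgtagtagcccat
Gm29216: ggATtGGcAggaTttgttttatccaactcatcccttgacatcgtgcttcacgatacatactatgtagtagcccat
The sequences are from the GENCODE M21 transcripts. Beyond the marked bases each pair is the same over the 75 bases shown.

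The tRNA genes whose counts are discussed most, mt-Tp, mt-Tt, mt-Tl1 and mt-Tq, are printed because they show how short these RNAs are beside the read length of 38 bases and that none shares a stretch of that length with a nuclear transcript. They carry proline, threonine, leucine (UUR codons) and glutamine. The anticodon is in capitals, and each is written 5′ to 3′ on its own strand (mt-Tp at chrM:15356-15422, minus, mt-Tt at chrM:15289-15355, plus, mt-Tl1 at chrM:2676-2750, plus, mt-Tq at chrM:3772-3842, minus).
mt-Tp: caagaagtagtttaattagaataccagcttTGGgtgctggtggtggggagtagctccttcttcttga
mt-Tt: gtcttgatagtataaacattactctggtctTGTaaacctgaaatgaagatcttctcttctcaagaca
mt-Tl1: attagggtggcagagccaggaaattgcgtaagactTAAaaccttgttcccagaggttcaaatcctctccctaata
mt-Tq: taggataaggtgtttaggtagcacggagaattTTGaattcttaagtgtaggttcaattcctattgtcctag

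Mitochondrially encoded genes took 7.17%, 6.48% and 7.08% of all counts on genes in CTRL and 5.88%, 5.40% and 6.64% in RbpjΔEC. RbpjΔEC 1 and 2 lay below all CTRL libraries and RbpjΔEC 3 lay above CTRL 2, so the groups overlapped. The means were 6.91% ± 0.373 (SD, n = 3) in CTRL and 5.97% ± 0.625 (SD, n = 3) in RbpjΔEC, a difference of -0.939 percentage points (exact permutation test, two-sided, p = 0.2, where the smallest p of 3 libraries against 3 is 0.1). In a bulk library, fewer cells of a type and less RNA per cell cannot be told apart. The endothelial and tubule marker sums given above moved between the libraries as well, and their part in these shares was not tested.

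The rRNA genes made up most of this share. The library kit removes fragments of cytosolic and mitochondrial rRNA with probes, so the rRNA counts are what remained after that step. They took 6.51%, 5.91% and 6.45% of the counts in CTRL and 5.38%, 4.95% and 5.97% in RbpjΔEC. The lowest CTRL library lay below the highest RbpjΔEC library, and the difference of the means was -0.856 percentage points (6.29% ± 0.328 against 5.43% ± 0.510, SD, n = 3, exact permutation test, two-sided, p = 0.2). Protein genes took 0.663%, 0.571% and 0.631% in CTRL and 0.498%, 0.448% and 0.671% in RbpjΔEC. Here RbpjΔEC 3 was the highest of the 6 libraries and RbpjΔEC 1 and 2 the lowest, and the means of 0.622% ± 0.0468 and 0.539% ± 0.117 (SD, n = 3) gave a p of 0.4 in the exact permutation test. All 22 tRNA genes together took 0.000604%, 0.000448% and 0.000592% in CTRL and 0.000571%, 0.000415% and 0.000628% in RbpjΔEC, with full overlap (p = 0.9, exact permutation test).

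**Figure D1:**
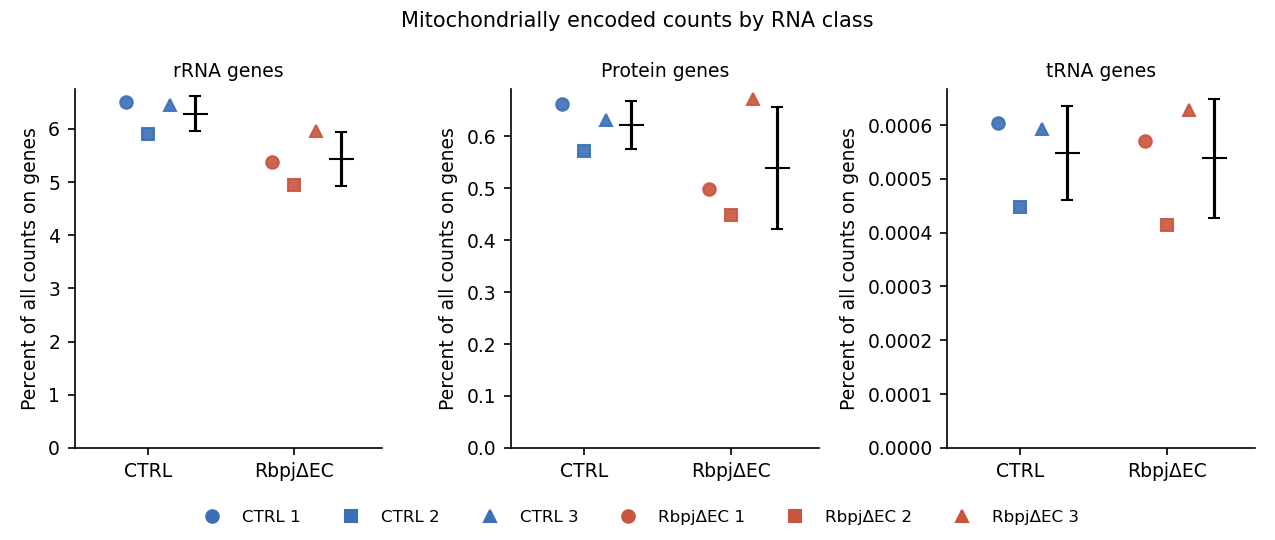
Percent of all counts on genes that fell on the mitochondrial rRNA, protein and tRNA genes, each panel with its own axis from 0; points are libraries and the black bar is the mean with its SD (n = 3). For rRNA and protein genes RbpjΔEC 1 and 2 sit below the 3 CTRL libraries, while RbpjΔEC 3 sits among them or, at 0.671% for the protein genes, above them.

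Of the 37 genes, 14 passed the low-count filter and were tested: both rRNA genes, 7 protein genes and 5 tRNA genes. None was called lower or higher at an adjusted p under 0.05 (quasi-likelihood test of edgeR, adjusted by Benjamini-Hochberg over the 18438 genes tested), with adjusted p-values from 0.205 to 0.901. Over all tested genes 1.13% were called in either direction and 0.559% lower. At an unadjusted p under 0.05, 4 of the 14 were lower (mt-Rnr1, mt-Rnr2, mt-Nd2 and mt-Co1) and 0 were higher, against 8.62% of all tested genes lower. DESeq2's Wald test also called 0 of the 14, where it called 2.77% of all tested genes lower. Fitted values were below 0 for 12 of the 14, and the median of the log2 fold changes was -0.26 in the 7 protein genes, -0.26 in the rRNA genes and -0.37 in the 5 tRNA genes, beside 0.01 over all genes. Those that passed the filter do not stand for the 23 that did not.

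Both rRNA genes ranked among the 3 most counted genes of the table. mt-Rnr2, the rRNA of the large subunit of the mitochondrial ribosome (ENSMUSG00000064339.1, chrM:1094-2675), had 42164, 38198 and 41723 CPM in CTRL and 34849.7, 32795 and 38399.6 CPM in RbpjΔEC. mt-Rnr1, that of the small subunit (ENSMUSG00000064337.1, chrM:70-1024), had 22914, 20919 and 22734 CPM in CTRL and 18952, 16706 and 21262 CPM in RbpjΔEC. In each gene RbpjΔEC 1 and 2 were below all CTRL libraries and RbpjΔEC 3 was just above CTRL 2. The log2 fold changes were -0.25 for mt-Rnr2 (95% CI -0.46 to -0.03, adjusted p = 0.218, edgeR) and -0.27 for mt-Rnr1 (95% CI -0.50 to -0.04, adjusted p = 0.205, edgeR). The ratio of the counts of mt-Rnr2 to mt-Rnr1 was 1.84, 1.83 and 1.84 in CTRL and 1.84, 1.96 and 1.81 in RbpjΔEC (p = 0.8, exact permutation test). RbpjΔEC 2 thus had the highest ratio, and the groups overlapped.

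Complex I, the NADH dehydrogenase, takes 7 of the 13 protein genes, and 5 of these were tested. mt-Nd1 (chrM:2751-3707) had 897, 804 and 958 CPM in CTRL and 774, 702 and 936 CPM in RbpjΔEC. mt-Nd2 (chrM:3914-4951) had 476, 413 and 472 CPM in CTRL and 339, 308 and 452 CPM in RbpjΔEC. For both genes the pattern was that of the rRNAs, with RbpjΔEC 1 and 2 below and RbpjΔEC 3 within the CTRL range. The log2 fold change of mt-Nd2, at -0.35 (95% CI -0.67 to -0.03, adjusted p = 0.240, edgeR), was the lowest of the tested protein genes, and that of mt-Nd1 was -0.18 (95% CI -0.43 to 0.06).

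mt-Nd4 (chrM:10167-11544) had 572, 480.1 and 502 CPM in CTRL and 392, 364 and 564 CPM in RbpjΔEC. mt-Nd5 (chrM:11742-13565) had 1216, 1009.7 and 1200.0 CPM in CTRL and 903, 793 and 1371 CPM in RbpjΔEC. RbpjΔEC 3 was thus the highest of the 6 libraries for mt-Nd5, and the groups overlapped for both. Their log2 fold changes were -0.28 (95% CI -0.68 to 0.12) and -0.20 (95% CI -0.73 to 0.33).

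mt-Nd6 (chrM:13552-14070, minus strand) is the single protein gene of the light strand. Its levels were 176, 172 and 201 CPM in CTRL and 181, 184 and 186 CPM in RbpjΔEC, with all RbpjΔEC libraries inside the CTRL range. The log2 fold change was -0.04 (95% CI -0.21 to 0.13, adjusted p = 0.820, edgeR) and was just above 0 (0.0033) when libraries were scaled by library size alone. Counts on the minus strand can be told from those of the opposite precursor only if strand was used in counting, which the sources used here do not state for these counts, although the library kit marks the strand.

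mt-Cytb, the mitochondrial subunit of complex III (chrM:14145-15288), had 1465, 1232 and 1319 CPM in CTRL and 1009, 873 and 1479.8 CPM in RbpjΔEC. mt-Co1, the catalytic subunit of complex IV (chrM:5328-6872), had 1829.6, 1598 and 1658 CPM in CTRL and 1383, 1256 and 1722 CPM in RbpjΔEC. In RbpjΔEC 3 mt-Cytb was the highest of all 6 libraries and mt-Co1 the second highest, while RbpjΔEC 1 and 2 were again below all CTRL libraries. The log2 fold changes were -0.30 for mt-Cytb (95% CI -0.78 to 0.18, adjusted p = 0.490, edgeR) and -0.26 for mt-Co1 (95% CI -0.51 to -0.02, adjusted p = 0.250, edgeR).

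**Figure D2:**
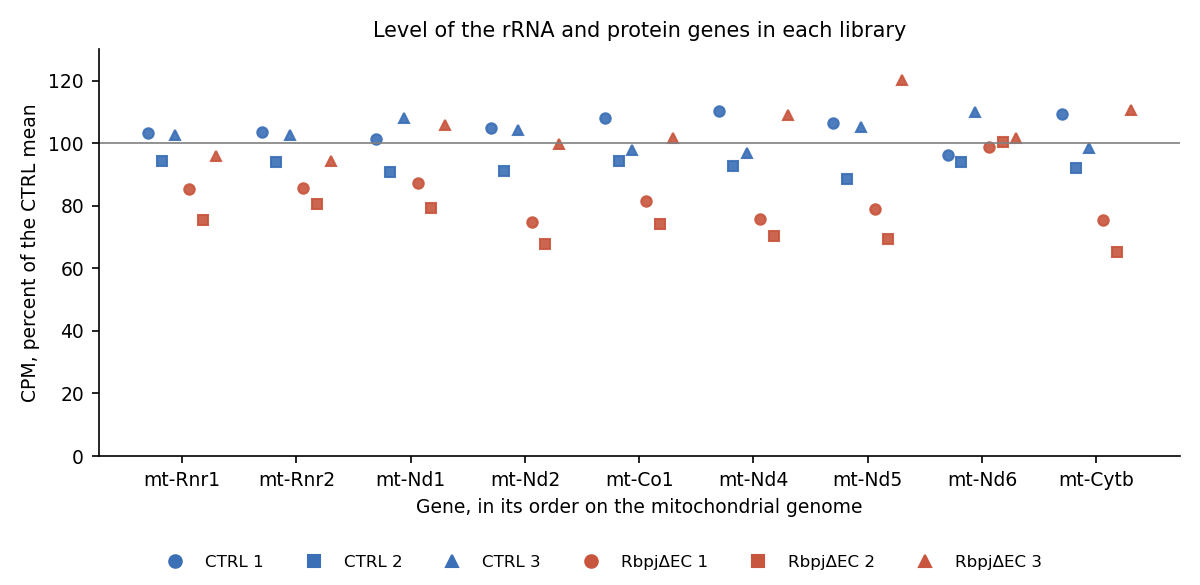
CPM of the 2 rRNA genes and 7 tested protein genes in each library, as percent of the gene's CTRL mean (grey line), in genome order. RbpjΔEC 1 and 2 lie below every CTRL library for 8 of the 9 genes, mt-Nd6 being the exception, and RbpjΔEC 3 lies within or above the CTRL range for all 9.

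Whether protein genes were called depended on RbpjΔEC 3. Without this library 5 protein genes were called lower by edgeR, namely mt-Nd2 (log2 fold change -0.53, adjusted p = 0.00949), mt-Cytb (-0.56, 0.0118), mt-Nd4 (-0.50, 0.0133), mt-Nd5 (-0.48, 0.0289) and mt-Co1 (-0.41, 0.0310), where 1.74% of all tested genes were called lower. The rRNA genes were not called without it (adjusted p = 0.0701 for mt-Rnr1 and 0.108 for mt-Rnr2), nor were mt-Nd1, mt-Nd6 or any tRNA gene. Leaving out any other library gave 0 calls. Without RbpjΔEC 2 the log2 fold changes of the same 5 genes were smaller than in the main fit. They were -0.24 for mt-Nd2, -0.15 for mt-Cytb, -0.16 for mt-Nd4, -0.05 for mt-Nd5 and -0.17 for mt-Co1. Without RbpjΔEC 3 the share of all mitochondrial genes differed by -1.27 percentage points and that of the protein genes by -0.149. RbpjΔEC 3 was also the library with 543 CPM of proximal tubule markers, at least 2.97 times the sum in any other library, and the part of these cells in its mitochondrial counts was not tested. Over all alternatives the adjusted p ran from 0.000561 to 0.501 for mt-Nd2, 0.0118 to 0.757 for mt-Cytb, 0.0133 to 0.732 for mt-Nd4, 0.0289 to 0.926 for mt-Nd5, 0.0139 to 0.539 for mt-Co1, 0.00568 to 0.442 for mt-Rnr1 and 0.0139 to 0.474 for mt-Rnr2 (edgeR or DESeq2). Without a low-count filter 29 members were tested and 4 were called lower, mt-Rnr1, mt-Rnr2, mt-Nd2 and mt-Co1, where 1.88% of all 38324 genes tested were called lower. Their log2 fold changes there were -0.26, -0.24, -0.34 and -0.26, close to those of the main fit. The median over all genes was -0.09 in that setting.

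**Figure D3:**
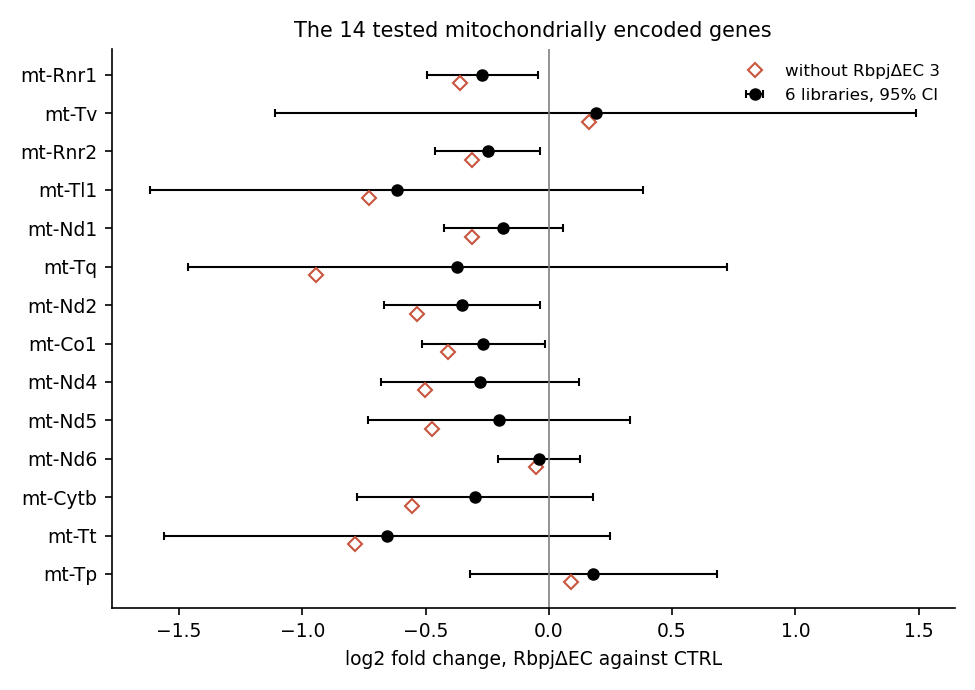
Log2 fold change (RbpjΔEC against CTRL) of the 14 tested genes in genome order, with the 95% CI from edgeR (black), and the value without RbpjΔEC 3 (open diamonds). With 6 libraries the intervals of mt-Rnr1, mt-Rnr2, mt-Nd2 and mt-Co1 end below 0, and without RbpjΔEC 3 all 7 protein genes move further below 0, mt-Nd6 the least.

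Read per length, the heavy-strand genes differed widely among themselves. Mean levels over the 6 libraries were 24034 CPM per kb for mt-Rnr2 and 21551 for mt-Rnr1, against 1075 for mt-Cytb, 1019 for mt-Co1, 883 for mt-Nd1, 593 for mt-Nd5, 395 for mt-Nd2 and 347 for mt-Nd4. mt-Nd6 stood at 353 CPM per kb. How reads shared with nuclear copies bear on these levels was not tested. Of the 38-base stretches of a gene, 58.4% of those of mt-Co1 and 62.6% of those of mt-Nd4 also occur in an annotated nuclear transcript, against 10.5% for mt-Nd2, 1.99% for mt-Cytb and 232 of 1787 in mt-Nd5, and 0 of those of mt-Nd1 and mt-Rnr1. Per 1000 stretches that occur nowhere else in the annotated transcripts, mt-Co1 had 2507 CPM, mt-Cytb 1133 CPM and mt-Nd4 954 CPM, so that mt-Co1 stood above mt-Cytb on this scale and mt-Nd4 below it. Fragments were read from both ends, and a mate outside a shared stretch can place a fragment, which this scale leaves out.

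The other 6 protein genes were almost without counts, and they lie side by side on the genome. mt-Co2 (chrM:7013-7696) and mt-Co3 (chrM:8607-9390), the other complex IV subunits, had at most 1 count in any library, and so had mt-Nd3 (chrM:9459-9806) and mt-Nd4l (chrM:9877-10173) of complex I. Of the ATP synthase subunits, mt-Atp8 (chrM:7766-7969) had no count, and mt-Atp6 (chrM:7927-8607) had 1, 0 and 0 counts in CTRL and 1, 0 and 20 counts in RbpjΔEC. All 6 lie within the stretch chrM:6381-11042 that the chromosome 1 copies run alongside. That stretch holds 11 whole members, 6 protein and 5 tRNA genes, with 33 counts in all over the 6 libraries and 5 members without any.

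Shared sequence was close to complete in 5 of these 6 genes. All 647 of the 38-base stretches of mt-Co2 occur in an annotated nuclear transcript, as do 746 of 747 in mt-Co3, 641 of 644 in mt-Atp6, 305 of 311 in mt-Nd3 and 257 of 260 in mt-Nd4l. mt-Atp8 shares 6 of 167 with annotated transcripts, and it has no copy of its own among the 7 on chromosome 1. Only annotated transcripts were searched, so the nuclear sequence between the annotated copies on chromosome 1, which lies opposite mt-Atp8 and the tRNA genes of this stretch, was not analysed here. How reads that fit several places were counted is not given in the sources used here, so the low counts of these genes cannot be read as low RNA levels, and no fold change is given for their own counts.

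**Figure D4:**
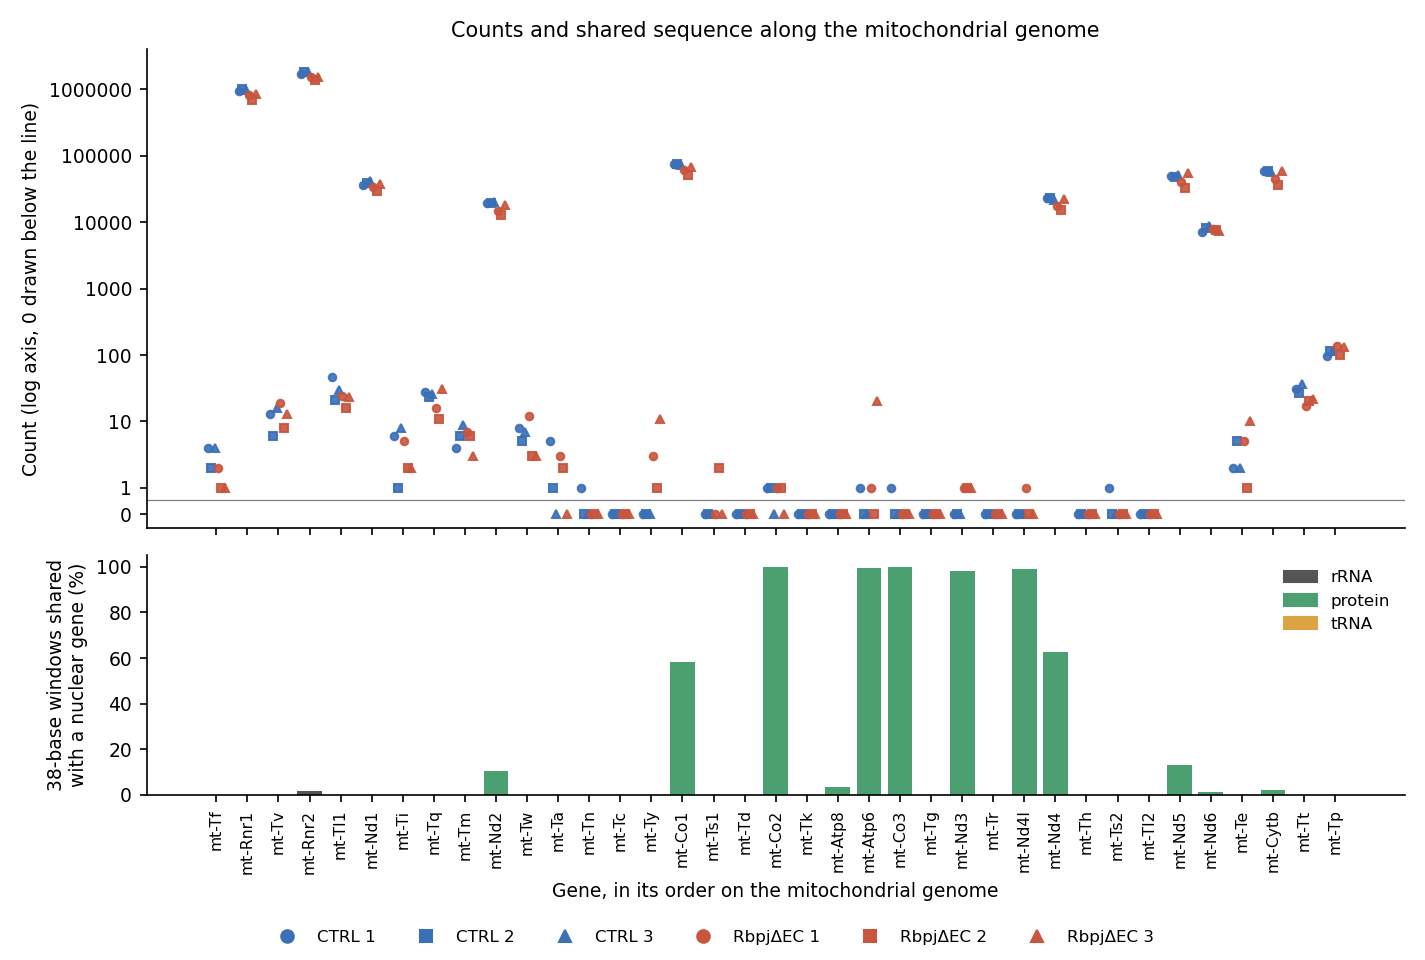
Top, counts of all 37 genes in each library in genome order on a log axis, with counts of 0 drawn below the grey line. Bottom, percent of the 38-base stretches of each gene that also occur in an annotated nuclear transcript, by RNA class. The protein genes from mt-Co2 to mt-Nd4l have between 0 and 20 counts, and 5 of these 6 share 98.1% or more of their stretches.

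Among the copies on chromosome 1, Gm28438 had the most counts. This copy of mt-Nd3 had 434, 549 and 489 counts in CTRL and 342, 214 and 417 counts in RbpjΔEC, while mt-Nd3 itself had 0, 0 and 0 counts in CTRL and 1, 1 and 1 in RbpjΔEC. In CPM, Gm28438 was at 10.6, 11.5 and 11.3 in CTRL and at 7.78, 5.16 and 10.5 in RbpjΔEC, without overlap. Its log2 fold change of -0.56 (SE 0.216) had an adjusted p of 0.220 in edgeR, and over the alternatives its adjusted p ran from 0.0162 to 0.455. It was called without RbpjΔEC 3 (-0.83, adjusted p = 0.0345, edgeR) and without a low-count filter (adjusted p = 0.0162, edgeR). Over the alternatives its log2 fold change ran from -0.83 to -0.33. The stretch that both share begins at base 4 of the gene, just past the base that differs, and which base the reads carried cannot be read from counts. With the counts of each chromosome 1 copy added to its mitochondrial gene, 3 of the 6 genes could be tested. Nearly all counts of these sums lay on the copies, except for mt-Atp6 in RbpjΔEC 3, where 20 lay on the gene and 17 on its copy. The log2 fold changes were -0.55 for mt-Nd3, 0.72 for mt-Atp6 and 0.19 for mt-Nd4l, with adjusted p-values from 0.221 to 0.886 (edgeR), and the calls for the 14 genes did not change.

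Gm29216, which matches the end of mt-Co1, had 41, 24 and 28 counts in CTRL and 84, 26 and 36 in RbpjΔEC, against 52079 to 76270 on mt-Co1. Gm28439, which matches the start of mt-Nd4, had 7, 13 and 10 in CTRL and 38, 6 and 15 in RbpjΔEC. Both were highest in RbpjΔEC 1 and otherwise overlapped. The copies Gm10222, Gm10925, Gm28661 and Gm28437 had between 0 and 26 counts per library, and Gm29215, a gene of the same neighbourhood that is not a copy of a member, had 0. Of the copies elsewhere, Gm13340 on chromosome 2, which shares 558 of the 1508 stretches of mt-Co1, had 150, 173 and 145 counts in CTRL and 139, 102 and 156 in RbpjΔEC. Gm4076 on chromosome 13, which shares 158 of the 1787 stretches of mt-Nd5, had 110, 79 and 88 in CTRL and 79, 36 and 101 in RbpjΔEC. The groups overlapped in both, and the remaining listed copies outside chromosome 1 had at most 54 counts in a library.

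Transfer RNA genes gave few counts in these libraries. How well RNAs this short were recovered was not tested, and reads of uncut precursors were not told apart. Their counts therefore cannot be read as levels of the tRNAs. Of the 22, 7 had no count at all and 17 did not pass the filter. The one with most counts was mt-Tp, the proline tRNA of the light strand, with 2.38, 2.45 and 2.71 CPM in CTRL and 3.14, 2.39 and 3.28 CPM in RbpjΔEC (97 to 138 counts). The groups overlapped, and the log2 fold change was 0.18 (95% CI -0.32 to 0.68). Its neighbour mt-Tt, the threonine tRNA of the heavy strand, was at 0.761, 0.566 and 0.856 CPM in CTRL and 0.387, 0.482 and 0.555 CPM in RbpjΔEC. It was the single member among the 14 whose groups did not overlap, where 8.53% of all tested genes lay without overlap on the lower side. With 17 to 37 counts per library the log2 fold change of -0.66 had a 95% CI of -1.56 to 0.25 (adjusted p = 0.440, edgeR).

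mt-Tl1, the leucine tRNA next to mt-Rnr2, was at 1.13, 0.440 and 0.694 CPM in CTRL and 0.546, 0.386 and 0.580 CPM in RbpjΔEC. mt-Tq, the glutamine tRNA of the light strand, was at 0.687, 0.482 and 0.601 CPM in CTRL and 0.364, 0.265 and 0.782 CPM in RbpjΔEC. mt-Tv, the valine tRNA between the rRNA genes (chrM:1025-1093), was at 0.319, 0.126 and 0.370 CPM in CTRL and 0.432, 0.193 and 0.328 CPM in RbpjΔEC. The groups overlapped in all of them, with log2 fold changes of -0.62, -0.37 and 0.19 and intervals that span 0. When a library was left out, these values ran from -0.90 to -0.22, -0.94 to -0.09 and -0.17 to 0.48. Among the tRNA genes below the filter, mt-Ty was at 0 in CTRL and had 3, 1 and 11 counts in RbpjΔEC, and the others had at most 12 counts in a library. No 38-base stretch of any tRNA gene occurs in an annotated nuclear transcript, and nuclear sequence outside annotated transcripts was not searched.

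Ratios within the mitochondrial counts do not depend on how nuclear RNA was scaled. Protein genes took 9.25%, 8.81% and 8.92% of the mitochondrial counts in CTRL and 8.47%, 8.30% and 10.1% in RbpjΔEC. The means were 8.99% ± 0.229 and 8.96% ± 1.00 (SD, n = 3), and the wider spread in RbpjΔEC came from library 3 (p = 1.0, exact permutation test, two-sided). The ratio of mt-Nd6 to the summed protein genes of the heavy strand was 0.0273, 0.0311 and 0.0329 in CTRL and 0.0377, 0.0428 and 0.0286 in RbpjΔEC. RbpjΔEC 1 and 2 had the highest ratios and RbpjΔEC 3 the second lowest, so that the groups overlapped (p = 0.3, exact permutation test). mt-Nd5 and mt-Cytb, the protein genes farthest from the start of the heavy-strand precursor, were at 1.95, 1.84 and 1.76 times the counts of mt-Nd1 and mt-Nd2, the nearest ones, in CTRL and at 1.72, 1.65 and 2.05 times in RbpjΔEC (p = 0.7, exact permutation test). Of the 9 permutation tests on shares and ratios given here, none had a p below 0.2, and the smallest after Benjamini-Hochberg adjustment over the 9 was 0.6.

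**Figure D5:**
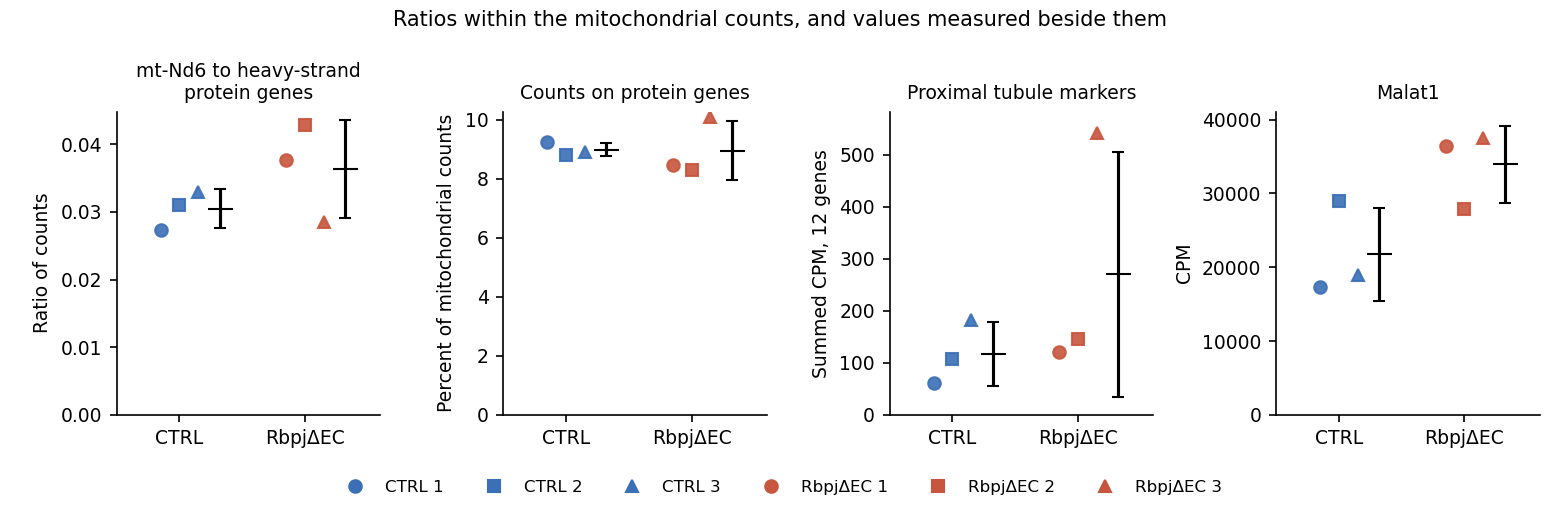
From left to right, the count ratio of mt-Nd6 to the heavy-strand protein genes, the percent of mitochondrial counts on protein genes, the summed CPM of 12 proximal tubule markers and the CPM of Malat1; points are libraries and the black bar is the mean with its SD (n = 3). RbpjΔEC 3 parts from RbpjΔEC 1 and 2 in the first 3 panels, with 543 CPM of tubule markers, while Malat1 is at 27946 CPM or more in all RbpjΔEC libraries and in CTRL 2.

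Nuclear long noncoding RNAs were measured beside these shares. Malat1, which stays in the nucleus, was at 17291, 28945 and 18926 CPM in CTRL and 36350.1, 27946 and 37551 CPM in RbpjΔEC (log2 fold change 0.60, adjusted p = 0.189, edgeR). The groups overlapped. CTRL 2, which had the lowest share of mitochondrial counts in CTRL, had the highest Malat1 level of that group, whereas in RbpjΔEC library 3 had both the highest share and the highest Malat1 level and library 2 the lowest of both. Without CTRL 2 Malat1 was called higher (adjusted p = 0.0130, edgeR, range over the alternatives 0.0130 to 0.506). The 5 nuclear long noncoding RNAs listed summed to 17943 to 29879 CPM in CTRL and 28721 to 38790.4 CPM in RbpjΔEC, with 0 called by edgeR or DESeq2 and 1, Malat1, at an unadjusted p under 0.05. The part of nuclear RNA in the shares was not tested. Against the counts on nuclear protein-coding genes alone, which leaves these RNAs out of the denominator, mitochondrial genes stood at 7.88% ± 0.434 in CTRL and 6.83% ± 0.800 in RbpjΔEC (SD, n = 3, exact permutation test, p = 0.2). CT010467.1, a cytosolic rRNA gene row chosen after its values were seen, was at 4704 to 9415 CPM in CTRL and 4757 to 5041 CPM in RbpjΔEC.

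Nuclear genes supply the proteins that copy, transcribe and translate the mitochondrial genome, while its rRNAs and tRNAs are its own. Over 9 lists of such genes, 108 of 110 symbols were listed in the table and tested. edgeR called none in either direction, and DESeq2 called 1 lower (Rexo2) and 1 higher (Polg2), beside 2.77% and 2.35% of all tested genes. With an unadjusted p below 0.05 in edgeR, 3 lay lower and 8 lay higher, beside 8.62% and 8.88% of all tested genes, and the median log2 fold change was 0.03 beside 0.01 for all genes. By list, the fitted values were lower for 5 and higher for 8 genes of mitochondrial DNA replication (median 0.14), 4 and 5 of transcription (0.01), 5 and 8 of RNA processing (0.03), 4 and 4 of RNA stability (-0.05), 7 and 9 of rRNA modification (0.03), 2 and 10 of tRNA modification (0.07), 7 and 10 of the tRNA synthetases (0.09), 7 and 6 of translation (-0.05), and 4 and 4 of the regulators of mitochondrial biogenesis (-0.02).

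Polg2, the accessory subunit of the mitochondrial DNA polymerase, was at 25.9, 42.6 and 26.9 CPM in CTRL and 64.4, 63.5 and 77.4 CPM in RbpjΔEC. All RbpjΔEC libraries were higher than all CTRL libraries. Its log2 fold change of 1.06 (SE 0.201) had an adjusted p of 0.0703 in edgeR, with an adjusted p between 3.01e-10 and 0.198 over the alternatives and of 5.83e-08 in DESeq2's Wald test. Without CTRL 2, the CTRL library nearest to the RbpjΔEC libraries, Polg2 was called by edgeR (adjusted p = 0.000630). Rexo2, an exonuclease that clears short mitochondrial RNA fragments, was at 32.3, 35.6 and 35.1 CPM in CTRL and 25.8, 29.8 and 28.6 CPM in RbpjΔEC. Here all RbpjΔEC libraries were lower (log2 fold change -0.33, SE 0.0893, adjusted p = 0.0919 by edgeR and 0.0330 by DESeq2, range over the alternatives 0.0330 to 0.332).

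None of the remaining genes with the smallest p of each list passed the threshold in edgeR. Mgme1, a nuclease of mitochondrial DNA replication, had a log2 fold change of -0.29, and Mterf1a and Mterf3, listed with transcription, had -0.71 and 0.14. Among RNA processing and decay genes the values were -0.16 for Ptcd2, -0.16 for Hsd17b10 and 0.13 for Angel2. Mettl17 and Nsun4, listed with rRNA modification, had 0.41 and 0.35, and the tRNA-modifying enzymes Osgepl1 and Trmt5 had 0.49 and -0.34. Of the tRNA synthetases Mars2 and Cars2 had 0.35 and 0.32. Mrrf and Tufm, factors of mitochondrial translation, had 0.18 and -0.21, and the regulators Ppargc1a and Gabpa had -0.38 and -0.10.

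The nuclear subunits of the respiratory complexes were counted by the same fit. Of 73 such genes, each with a row that was tested, 65 had fitted values below 0 and 8 above, 28 lay lower and 0 higher with an unadjusted p below 0.05 (against 8.62% of all tested genes lower), and 0 were called by edgeR (DESeq2 called 5 lower, against its 2.77% of all genes). A second row with the symbol Atp5o had no count in any library and was not tested. Median log2 fold changes were -0.17 for the 36 genes of complex I, -0.25 for the 9 of complex III, -0.30 for the 11 of complex IV and -0.18 for the 17 of complex V. The mitochondrial subunits of the same complexes had medians of -0.20 (complex I, 5 tested), -0.30 (complex III, 1) and -0.26 (complex IV, 1). Summed, the nuclear subunits were at 2179, 1930.5 and 2277 CPM in CTRL and 1834, 1961 and 1897 CPM in RbpjΔEC, and CTRL 2 lay within the RbpjΔEC range. RbpjΔEC 3 was not high here, unlike in the mitochondrial protein genes.

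Within each complex the 2 smallest p-values belonged to Cox6b1 (-0.41) and Cox6a1 (-0.38) of complex IV, Atp5b (-0.31) and Atp5a1 (-0.35) of complex V, Uqcrfs1 (-0.38) and Uqcr11 (-0.37) of complex III, and Ndufa4 (-0.35) and Ndufa13 (-0.30), counted with complex I by symbol. All are log2 fold changes, and none passed the threshold in edgeR. Of the 78 proteins of the mitochondrial ribosome, which holds the 2 mitochondrial rRNAs, 54 had fitted values below 0 and 24 above, with a median of -0.08 and 0 called by edgeR (at an unadjusted p below 0.05, 6 were lower and 1 was higher, and DESeq2 called 1 higher). Their summed level was 1028 ± 30.6 CPM in CTRL and 1028 ± 26.2 CPM in RbpjΔEC (SD, n = 3), and Mrpl17 (0.30) and Mrps14 (-0.34) had the smallest p. The cytosolic ribosomal proteins, as a list outside the mitochondrion, had a median of -0.15 (62 below 0, 16 above, 13 and 2 of them with an unadjusted p below 0.05, 0 called by edgeR, 2 called lower and 1 higher by DESeq2). The shares of all tested genes for these counts and those of the mitochondrial ribosome are 8.62% lower and 8.88% higher at the unadjusted threshold, and 2.77% and 2.35% in DESeq2.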

How the data were processed

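Libraries were made by the authors with a stranded total RNA kit from 2 ng of RNA. They sequenced all 6 in a common run, trimmed with Trim Galore 0.6.4, aligned to GRCm38.p6 with STAR 2.6.1d and counted reads per gene (GENCODE M25) with featureCounts of Subread 1.6.4 in nf-core/rnaseq 1.4.2. The deposited values are raw counts per gene, without normalization. The strand setting and the treatment of reads that fit several places are not given in the sources used here.

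Counts were scaled by TMM and tested with edgeR 4.0.16 in R 4.3.3 (glmQLFit with robust estimation, glmQLFTest, group as the only term, filterByExpr, Benjamini-Hochberg adjustment over the 18438 genes kept, threshold 0.05). Standard errors were derived from the fold change and its F statistic. DESeq2 1.42.0 was an alternative, as were other scalings and filters, a replicate block and leaving out each library. Single values were compared by exact permutation tests. On simulated counts the fit was tested before use. The 38-base stretches, equal in length to each read of a pair and taken singly, were searched on both strands of the GENCODE M21 transcripts (GRCm38). Nuclear respiratory and ribosomal lists were set by symbol patterns. All members are named or counted. The genes with the 2 smallest p are named for each list of mitochondrial gene expression, each respiratory complex and the mitochondrial ribosome. The members and lists were chosen with earlier results of these data known. Replicates are separate mice, and no pair of libraries was identical. Counting intervals are not printed, since the spread between mice exceeds counting error for the abundant genes. Rows of other cytosolic rRNA genes were not analysed here.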

Additional observations from a re-analysis of the deposited data

How the results depend on the processing

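No alternative called a mitochondrially encoded gene higher. The number called lower was 0 under the other scalings, the stricter filter, DESeq2, the replicate block and the summed nuclear copies, 4 of 29 tested without a low-count filter (1.88% of all genes there), and 0 to 5 when a library was left out (5 without RbpjΔEC 3). The cause was not tested. The 14 tested genes kept their direction except mt-Nd6 (0.0033 with library size alone, -0.10 to 0.036 when a library was left out, positive without CTRL 3) and mt-Tv (-0.17 to 0.48, negative without CTRL 2 or RbpjΔEC 1). Leaving out a library moved the median of the protein genes between -0.48 and -0.15 and that of the tRNA genes between -0.73 and -0.09. The difference in percent of library ran from -1.27 to -0.652 for all members, -1.12 to -0.615 for rRNA, -0.149 to -0.0370 for protein and -5.99e-05 to 5.2e-05 for tRNA genes, and that in the percent of mitochondrial counts on protein genes from -0.605 to 0.303 (0.0169 without the protein genes that have a chromosome 1 copy). The mt-Nd6 ratio differed by 0.00268 to 0.00978. The summed nuclear copies and the protein-coding denominator were chosen after seeing the data and changed no direction. DESeq2 called 1 nuclear gene of mitochondrial gene expression lower (Rexo2) and 1 higher (Polg2), beside 2.77% and 2.35% of all tested genes.

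The replicate numbers are shared by CTRL and RbpjΔEC libraries, but same-numbered libraries did not deviate together (correlations 0.0229, 0.00945 and 0.00558). With the number as a replicate block, 0 members were called, the median of the protein genes was -0.28 and that of the tRNA genes -0.48, the difference in percent of library is -0.939 by construction, since the numbers are balanced over the groups, and over all genes 178 lower and 166 higher were called in place of 103 and 106. Polg2 was called higher with the block (adjusted p = 0.0404, edgeR, against 0.0703 without it). Counts limit the tRNA genes most, since all but mt-Tp had under 50 counts in every library.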
